A study of Mus musculus with 10 samples.

Results

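Of the mice of the series, 5 carried the human TARDBP gene with the M337V change, and their 5 lumbar spinal cord libraries were numbered in 2 sets: TDP_10, TDP_11 and TDP_12 (animals 1, 2 and 3) and TDP_5 and TDP_7 (animals 7 and 9). The 2 sets were compared with each other, so that every difference described here lay within 1 genotype. Libraries were assigned by their names alone, and 5 of the 10 libraries of the series entered the comparison. The labels give no sequencing run, date or preparation for either set, so the sets are named here by animal as M337V 1 to 3 and M337V 7 and 9. Which property of the animals or libraries goes with the numbering is not given, and litter, dissection, library preparation and genetic background cannot be told apart as sources of a difference.

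TARDBP encodes TDP-43, a nuclear RNA-binding protein that forms cytoplasmic deposits in motor neurons in most amyotrophic lateral sclerosis, and M337V is a disease mutation in its C-terminal part. The M337V mice carried a bacterial artificial chromosome with the human gene, placed as a single copy at the Rosa26 locus, on top of their own mouse Tardbp. The 2 WT mice (animals 8 and 10) carried the unmutated human gene at the same place, and the 3 NTg mice (animals 4, 5 and 6) were nontransgenic C57BL/6. All 10 mice were females of 3 months, with 1 polyA RNA library each. Each transgene was 1 line from targeted embryonic stem cells, backcrossed to C57BL/6J for at least 3 generations, and the labels do not say whether these animals were heterozygous or homozygous.

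The groups of genes followed here have known roles in the cord. Immediate early genes are transcribed within minutes of neuronal firing, injury or handling, without new protein synthesis, and then decay quickly. Their products are mostly transcription factors (the AP-1, Egr, Nr4a and Klf families), feedback regulators that end the response, and synaptic effectors. Myelin genes are carried by oligodendrocytes, which make up much of the white matter of the cord. Developmental genes, such as the Hox genes, keep a record of position along the body axis, and their 10 to 13 paralog groups are the most posterior.

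Several of the largest differences fell on pairs of near-identical genes, a parent gene and an intronless copy of its messenger RNA elsewhere in the genome (a retrocopy), and a few sequences show how little separates them. Each stretch below is 100 bases of coding sequence from the GENCODE vM21 transcripts (mouse build GRCm38), taken where the coding sequences of the 2 members differ most. For Hmga1 and Hmga1b, whose coding sequences do not differ, it is the first 100 coding bases. Bases that differ between the members are in capitals. Rnps1 (17:24414565-24425901, an RNA-binding splicing factor) and its processed pseudogene Gm9825 (6:7982541-7983383) differed at 2 bases of the stretch and 5 of the 843 aligned coding bases.
Rnps1: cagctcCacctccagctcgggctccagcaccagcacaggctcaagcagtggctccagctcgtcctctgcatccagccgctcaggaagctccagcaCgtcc
Gm9825: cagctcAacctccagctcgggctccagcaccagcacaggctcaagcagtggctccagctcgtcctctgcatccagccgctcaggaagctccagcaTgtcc
Hdac1 (4:129516104-129542713, a histone deacetylase) and its processed pseudogene Gm10093 (17:78491582-78493025) differed at 6 bases of the stretch and 9 of 1444.
Hdac1: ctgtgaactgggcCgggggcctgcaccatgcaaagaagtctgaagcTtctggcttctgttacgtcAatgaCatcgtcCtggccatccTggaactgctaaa
Gm10093: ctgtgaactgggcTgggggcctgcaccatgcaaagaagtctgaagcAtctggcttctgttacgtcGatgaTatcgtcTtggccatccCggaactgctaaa
Rnf26 (9:44095631-44113517, a ubiquitin ligase) and Gm9008 (6:76495432-76497784) differed at 2 bases of the stretch and 11 of 1272.
Rnf26: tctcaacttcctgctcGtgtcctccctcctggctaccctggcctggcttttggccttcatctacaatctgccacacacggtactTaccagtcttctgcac
Gm9008: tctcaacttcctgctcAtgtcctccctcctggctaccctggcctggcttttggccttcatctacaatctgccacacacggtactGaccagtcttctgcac
Hmga1 (17:27556497-27563674) and Hmga1b (11:120762794-120764419), which encode the same DNA-bending chromatin protein, differed at 0 of 321 coding bases. Over 1602 aligned bases they were 99.81% identical, so their differences lay outside the coding part and are not shown.
Hmga1: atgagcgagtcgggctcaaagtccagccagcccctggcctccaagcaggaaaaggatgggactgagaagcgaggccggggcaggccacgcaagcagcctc
Hmga1b: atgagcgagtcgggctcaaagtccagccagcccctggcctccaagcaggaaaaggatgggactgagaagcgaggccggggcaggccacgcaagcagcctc
Reads that cover none of the differing bases match both members equally. The separate counts of a pair are therefore uncertain, and the sum of both was examined beside them.

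The libraries were of like depth. The 5 M337V libraries held 18724888 to 19571914 counts, and the other 5 held 19424118 to 21041474. Human TARDBP stood at 116, 118 and 125 CPM (gene counts scaled to library size with edgeR's TMM factors over all 10 libraries) in M337V 1 to 3, and at 141 and 124 CPM in M337V 7 and 9. Mouse Tardbp stood at 250.4, 271.9 and 279.6 CPM against 227.5 and 252.8 CPM. Neither differed past the threshold between the sets (adjusted p = 0.439 and 0.433, edgeR). The library labelled NTg 4 went against its label, with 2415 human TARDBP counts where NTg 5 and NTg 6 had 1 and 4, and comparisons with NTg are given with and without it. M337V 3 stood apart within its set on the posterior Hox genes, with 789 counts over paralog groups 10 to 13 against 2295 and 2327 in M337V 1 and 2 and 3211 and 2793 in M337V 7 and 9. WT 8 was lower still, with 240 counts over these genes against 4523 in WT 10 and 3530 to 4584 in NTg, and counts of called genes against WT are given with and without it.

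Over all genes, libraries of different sets were about as far apart as the farthest pair within a set. The root mean square difference of log2(CPM + 1) over the 14859 genes tested was 0.261 to 0.280 for the 6 pairs between the sets. It was 0.187, 0.243 and 0.262 for the 3 pairs among M337V 1 to 3, and 0.233 between M337V 7 and 9. The pair M337V 1 and 3 was thus as far apart as the nearest pair between the sets, and the 2 WT libraries were farther apart than either, at 0.343. The first principal component of the 5 libraries held 37.9% of the variance and separated the sets, with M337V 1 to 3 at -11.8, -11.56 and -5.86 and M337V 7 and 9 at 14.5 and 14.7. The second held 28.5% and set M337V 3, at -19.9, apart from the other 4.

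Between the sets, 63 of 14859 genes differed at an adjusted p below 0.05 in edgeR's quasi-likelihood test with Benjamini-Hochberg adjustment (0.424% of genes tested), here termed called. Of these, 31 were higher (0.209%) and 32 lower (0.215%) in M337V 1 to 3, and all log2 differences below are M337V 1 to 3 minus M337V 7 and 9. The median absolute log2 difference of the called genes was 0.70. Changes were small in 25 of them, under 1.5-fold, and 21 were over 2-fold. At an unadjusted p below 0.05, 836 genes were higher (5.63%) and 998 lower (6.72%). The levels of the 2 sets did not overlap in 2373 genes that were higher (16.0%) and 2215 that were lower (14.9%). The number called depended on single libraries: it was 20 without M337V 2, 37 without M337V 7 and 195 without M337V 3. A fit of all 10 libraries called 22, DESeq2 called 218 and limma-voom 113, with the direction of each of the 63 genes kept in every setting that gave it a value. List members that DESeq2 or limma-voom called are to be read beside these larger counts, 218 and 113 of 14859 genes in either direction.

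Of the called genes, 7 (Ndufs5, Hmgn2, Reln, Glo1, Hyi, Stmn1 and Egr1) stayed called in all 15 alternative settings. Ndufs5, an accessory subunit of mitochondrial complex I (4:123712710-123718202), stood at 14.6, 14.3 and 16.9 CPM in M337V 1 to 3 and at 48.5 and 49.3 CPM in M337V 7 and 9. Its log2 difference was -1.68 ± 0.09 (SE, edgeR adjusted p = 7.6e-05). Hmgn2, a nucleosome-binding chromatin protein (4:133964738-133968650), stood at 23.8, 25.9 and 22.7 CPM against 58.2 and 61.3 CPM, a log2 difference of -1.31 ± 0.08 (adjusted p = 0.000109, edgeR). The 2 sets were far apart on both genes, with a spread within each set of a few CPM.

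Reln, the secreted guidance protein reelin (5:21884454-22344702), stood at 70.6, 59.2 and 56.2 CPM in M337V 1 to 3 and at 149 and 143 CPM in M337V 7 and 9 (log2 difference -1.24 ± 0.09, edgeR adjusted p = 0.000668). Of the other libraries, WT 8 and 10 stood at 155.5 and 109.9 CPM, both above NTg 4, 5 and 6 at 83.7, 70.1 and 65.4 CPM. Stmn1, the microtubule regulator stathmin, stood at 155, 151 and 142 CPM against 223 and 222 CPM (-0.58 ± 0.06, edgeR adjusted p = 0.00432). Glo1, a glyoxalase that detoxifies methylglyoxal (17:30584936-30626871), was higher in M337V 1 to 3, at 196, 209 and 201 CPM against 127 and 134 CPM (0.63 ± 0.06, edgeR adjusted p = 0.0031). Hyi, a hydroxypyruvate isomerase that GENCODE lists as a polymorphic pseudogene, stood at 12.4, 12.9 and 13.2 CPM against 5.58 and 4.89 CPM (1.29 ± 0.12, edgeR adjusted p = 0.00386). All 4 were called, and no library of one set reached the range of the other.

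**Figure D1:**
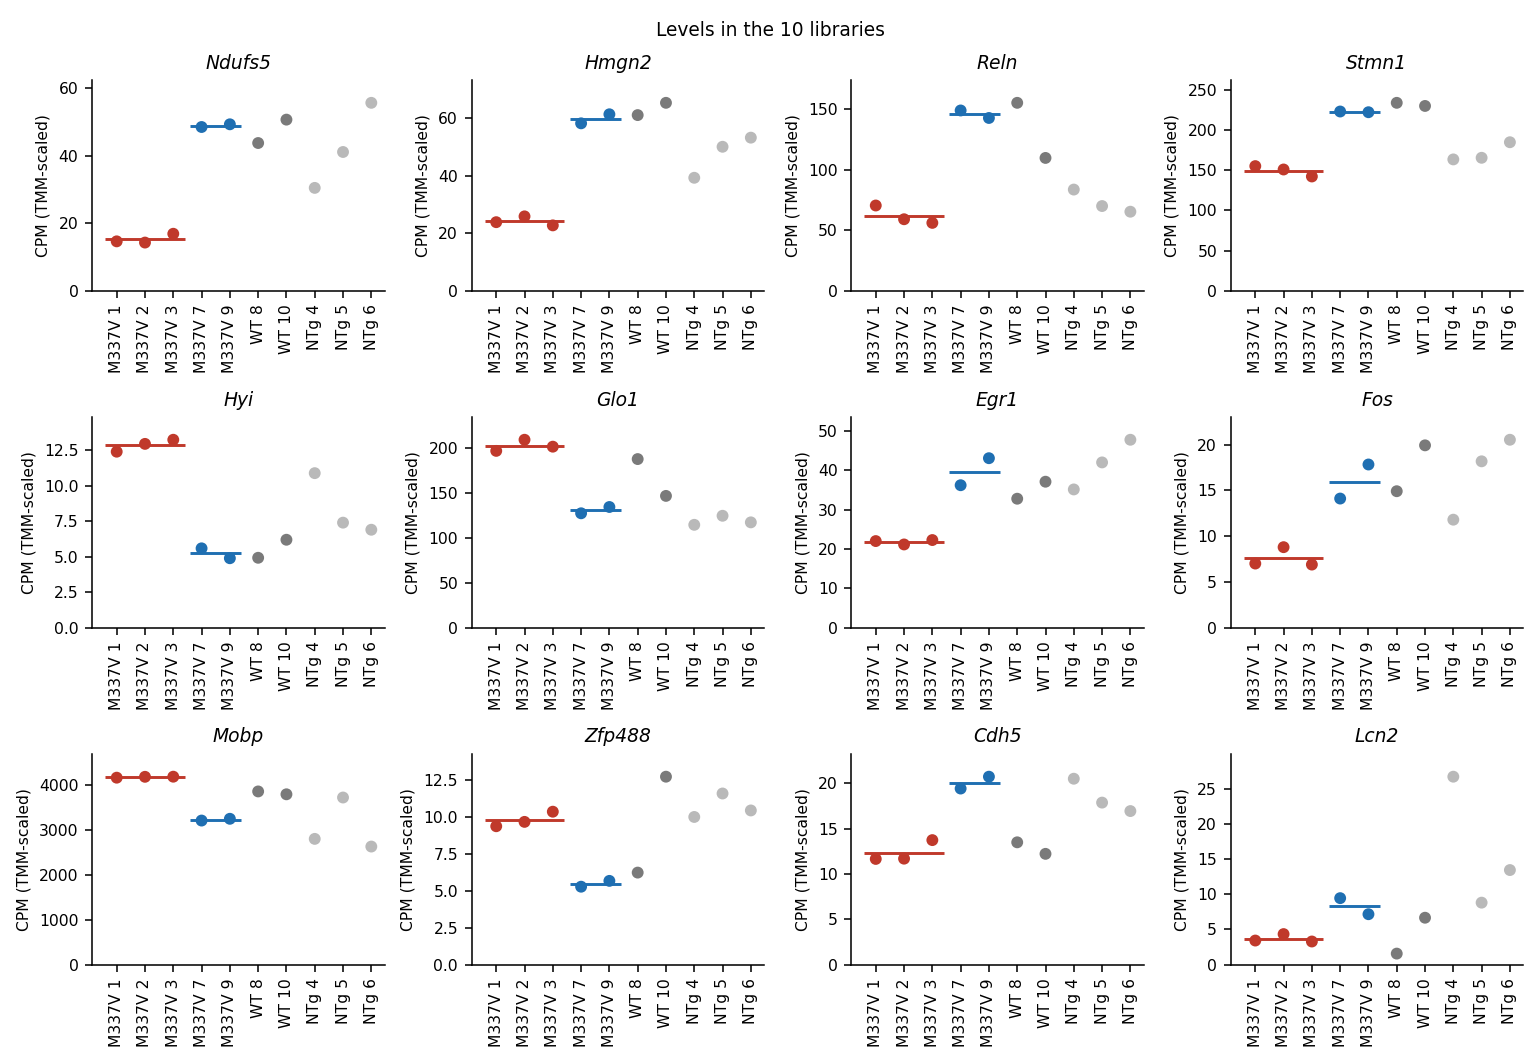
TMM-scaled CPM (vertical axes, from 0) of 12 called genes in each of the 10 libraries, M337V 1 to 3 in red, M337V 7 and 9 in blue, WT in dark grey and NTg in light grey; lines are the means of the M337V sets. Ndufs5 stood at 14.3 to 16.9 CPM in M337V 1 to 3 and at 48.5 and 49.3 CPM in M337V 7 and 9, and Reln in NTg 4 to 6 lies near M337V 1 to 3, at 65.4 to 83.7 CPM.

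The functions of other called genes were mixed. Among the higher ones, Cthrc1, a secreted collagen triple helix protein, had a log2 difference of 1.10, Phactr4, a phosphatase and actin regulator, of 0.74, and Ppt1, a lysosomal thioesterase, of 0.53. Opn4, the photopigment melanopsin, was called at very low levels, 2.35 to 2.71 CPM against 0.672 and 0.676 CPM. Among the lower ones, Kit, a receptor tyrosine kinase, had a log2 difference of -0.76, and Igfbp5, an insulin-like growth factor binding protein, of -0.52.

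Members of near-identical sets made up 11 of the 63 called genes, at 98% identity or more over at least 50% of the shorter transcript. The sets were pairs of a parent and a retrocopy, except for Tuba1c, which was set with the alpha tubulin genes Tuba1a and Tuba1b. By a looser rule, 90% identity over at least 300 bases, 16 of the 63 shared sequence with a gene at another place. Counts of H2-Bl, called higher, fall under the looser rule, since it resembles other MHC class I genes. The log2 differences of the near-absent copies depend on the prior count, so their levels are given instead.

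Hmga1b stood at 13.1, 9.76 and 10.7 CPM in M337V 1 to 3 and at 0.362 and 0.26 CPM in M337V 7 and 9. Its parent went the other way, with Hmga1 at 37.8, 36.7 and 37.5 CPM against 53.0 and 49.4 CPM. Summed, the pair stood at 50.9, 46.5 and 48.2 CPM against 53.3 and 49.7 CPM, and the sum was not called (log2 difference -0.09 ± 0.07, edgeR adjusted p = 0.655). The 2 sets overlapped on the sum and not on either member. Gm9825 stood at 7.37 to 8.42 CPM against 0.0517 and 0.156 CPM, with Rnps1 at 35.6 to 37.9 CPM against 52.5 and 50.2 CPM. Their sum had a log2 difference of -0.21 ± 0.07 (edgeR adjusted p = 0.271).

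Gm10093 stood at 2.15, 2.58 and 2.4 CPM in M337V 1 to 3 and at 0.155 and 0 CPM in M337V 7 and 9, while Hdac1 stood at 18.6 to 19.3 CPM against 28.2 and 26.1 CPM. Their sum had a log2 difference of -0.36 ± 0.08 (edgeR adjusted p = 0.123). Gm9008 went the opposite way: 0.0512, 0 and 0 CPM in M337V 1 to 3 against 2.43 and 3.07 CPM, with its sum with Rnf26 at 31.2 to 31.5 CPM against 29.6 and 32.5 CPM. Gm6768, a processed pseudogene of the nuclear receptor coactivator gene Ncoa4, stood at 8.08 to 9.50 CPM against 0.465 and 0.312 CPM, and the sum had a log2 difference of 0.09 ± 0.06 (edgeR adjusted p = 0.609). Gm10036, a processed pseudogene of the ribosomal protein gene Rpl11, stood at 10.1, 10.7 and 11.4 CPM against 0.0517 and 0.104 CPM. Its sum with Rpl11 was 158 to 163 CPM against 129 and 131 CPM (0.29 ± 0.05, edgeR adjusted p = 0.0711).

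The other 2 near-identical sets were otherwise. Hmgn2 and its copy Gm10282 summed to 23.5 to 26.8 CPM against 58.4 and 61.6 CPM, and the sum stayed called (log2 difference -1.27 ± 0.08, edgeR adjusted p = 0.000466). Tuba1c, an alpha tubulin, stood at 0.665, 1.23 and 1.78 CPM against 12.5 and 13 CPM, and its sum with Tuba1a and Tuba1b had a log2 difference of 0.24 ± 0.05 (edgeR adjusted p = 0.118). With all such pairs summed before the test, a setting added after the data were seen, 43 genes were called in place of 63. Those lower in M337V 1 to 3 became 18 in place of 32. Of the 63, 56 kept a row after summing, and 13 of these lost their call. Rnps1, Hmga1 and Hdac1 belong to pairs. The rest do not: Adgrf5, Fxyd6, Fabp4, Lcn2, Myh9, Acvrl1, Tmem252, Lyz2, Pcdh17 and Pyurf. Their adjusted p in the main edgeR fit was already near the threshold, at 0.0411 to 0.0478.

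**Figure D2:**
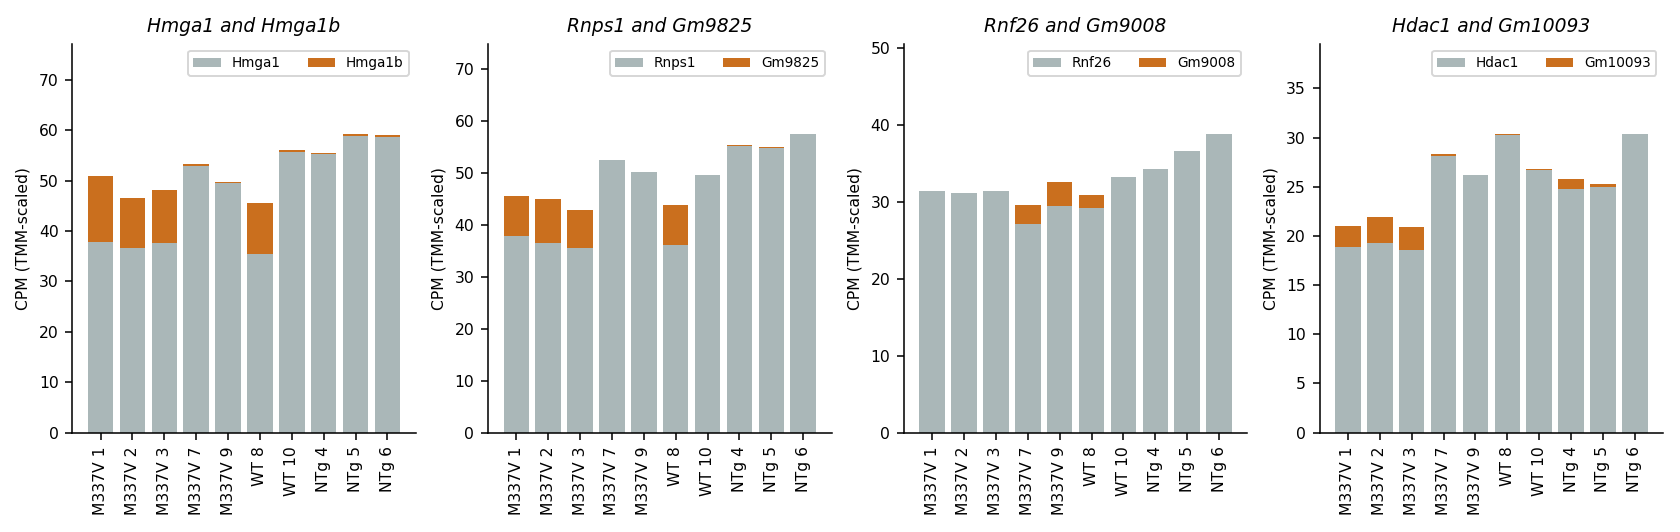
TMM-scaled CPM (vertical axes, from 0) of 4 parent genes (grey) with their near-identical copies stacked on top (orange) in each of the 10 libraries. Hmga1b stood at 9.76 to 13.1 CPM in M337V 1 to 3 and at 10.1 CPM in WT 8, and at 0.233 to 0.443 CPM in the other 6 libraries, while Hmga1 and Hmga1b summed to 45.5 to 59.3 CPM over the 10 libraries.

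The copies did not follow genotype over the other 5 libraries. Hmga1b and Gm9825 stood at 10.1 and 7.59 CPM in WT 8, as in M337V 1 to 3, and at 0.341 and 0.0974 CPM in WT 10, as in M337V 7 and 9. Gm6768 went the other way in the same 2 animals, at 0.262 CPM in WT 8 and 9.45 CPM in WT 10. Gm10036 was intermediate in 2 NTg libraries, at 5.14 CPM in NTg 4 and 2.91 CPM in NTg 5, and at 0.186 CPM in NTg 6. Genotypes at these loci were not analysed here.

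Some called genes fell in runs along a chromosome. Runs of at least 3 called genes whose starts were within 10 Mb of the next, a rule chosen after the data were seen, held 26 of the 63. On chromosome 4, 8 of 210 tested genes between 118359990 and 134473843 were called: Hyi, Med8, Ppt1, Ndufs5, Hdac1, Phactr4, Hmgn2 and Stmn1. On chromosome 17, 8 of 361 between 23836785 and 46283026 were called: Prss41, Atp6v0c, Rnps1, Hmga1, Glo1, H2-Bl, Adgrf5 and Tjap1. The other 3 runs were shorter and lay on chromosome 9 (Fxyd6, Pts and Dixdc1, and Dag1, Ltf, Mobp and Lars2) and chromosome 15 (Olfr287, Tuba1c and Acvrl1). Within each run, higher and lower genes were mixed, and most tested genes between them were not called. Since each run was drawn from the called genes, the share called within it is no measure of clustering. The coordinates are GRCm38, from GENCODE vM21, and the build of the authors' counting is not given in the sources used here.

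On the chromosome 17 run, WT 8 was nearer in log2(CPM + 0.1) to M337V 1 to 3 at 7 of 8 called genes. WT 10 and NTg 4 were nearer to them at 1 of 8, and NTg 5 and 6 at 0. Rnps1 and Hmga1 are among the 7, and their calls were lost on summing with Gm9825 on chromosome 6 and Hmga1b on chromosome 11, copies that stood at 7.59 and 10.1 CPM in WT 8. The call of Hdac1 in the chromosome 4 run was lost in the same way with Gm10093. H2-Bl, another of the 7 on chromosome 17, stood at 13.2, 11.9 and 12.6 CPM in M337V 1 to 3, 2.74 and 2.29 CPM in M337V 7 and 9, 10.2 CPM in WT 8, and 2.29 to 3.31 CPM in the other 4 libraries. On the chromosome 4 run, both WT libraries and NTg 6 were nearer to M337V 7 and 9 at all 8 genes, and NTg 4 and 5 at 6 of 8. Ndufs5 was at 30.5 CPM in NTg 4 and 41.1 CPM in NTg 5, between the levels of the 2 M337V sets. Over all 63 called genes, the libraries nearer to M337V 1 to 3 were WT 8 at 27, WT 10 at 28, NTg 4 at 19, NTg 5 at 21 and NTg 6 at 16.

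**Figure D3:**
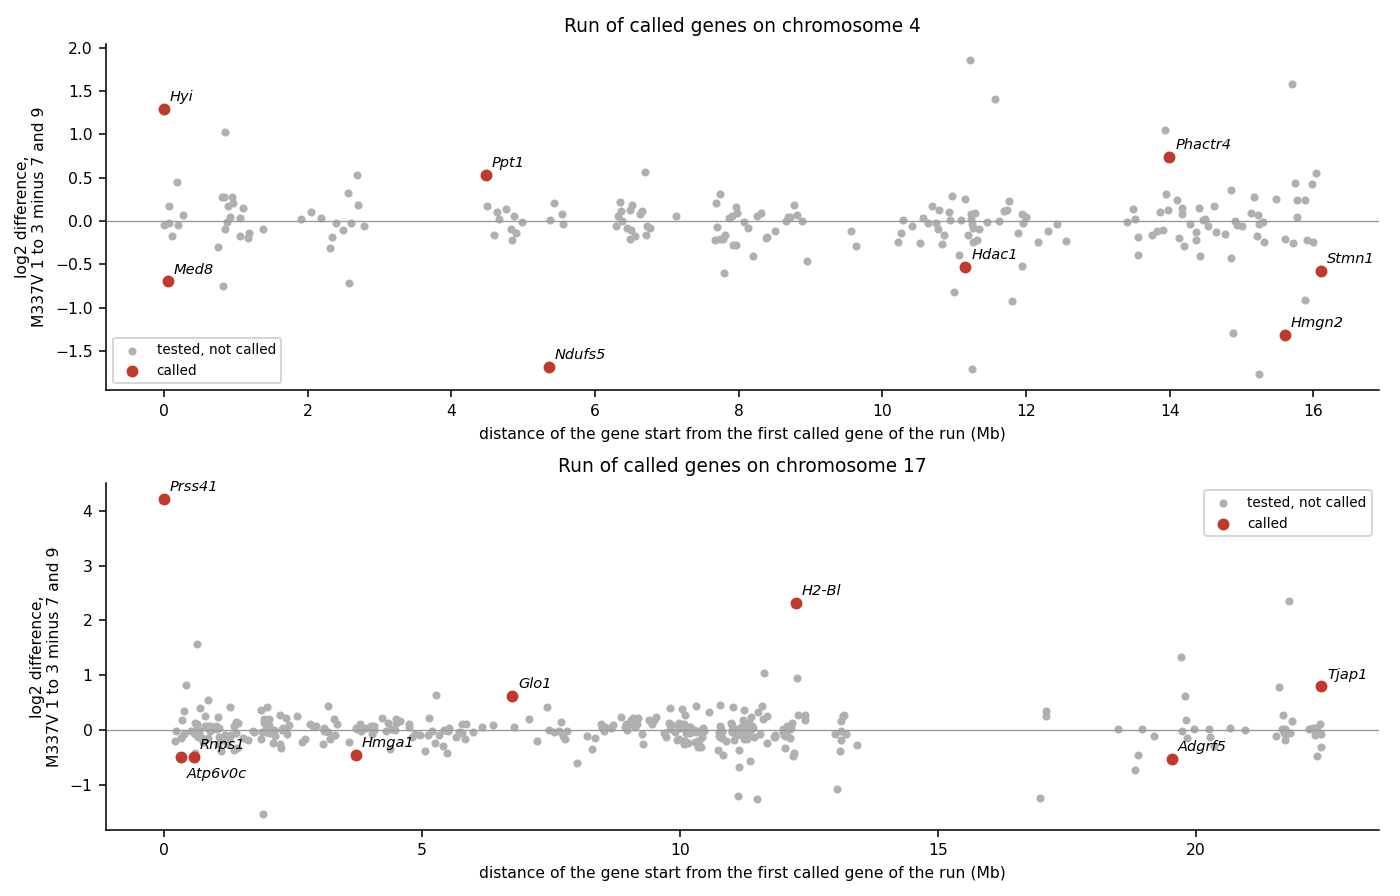
Log2 difference between the M337V sets (vertical axes) of every tested gene in the 2 longest runs of called genes, against the distance of its start from the first called gene of the run (Mb, horizontal axes); called genes are red and named. The 8 called genes of each run point in both directions, among 210 tested genes on chromosome 4 and 361 on chromosome 17.

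Of the immediate early genes, 38 of 39 in the table were tested. Their median log2 difference was -0.23, against 0.00 over all genes tested, 30 of 38 were negative, and 2 were called, Egr1 and Fos, both lower in M337V 1 to 3, where 0.215% of all genes were called lower. Without overlap between the sets, 18 were lower and 0 higher, beside 14.9% and 16.0% of all genes. At an unadjusted p below 0.05, 11 were lower and 0 higher, beside 6.72% and 5.63%. DESeq2 called 5 of the list and limma-voom 4, all lower: Egr1, Fos, Klf2 and Nr4a1 in both and Sik1 in DESeq2. Over all 14859 genes, DESeq2 called 218 and limma-voom 113 in either direction. Egr1, an early zinc finger factor of active neurons, stood at 22.0, 21.1 and 22.3 CPM in M337V 1 to 3 and at 36.2 and 43.0 CPM in M337V 7 and 9. Its log2 difference was -0.86 ± 0.09 (edgeR adjusted p = 0.00503), and its adjusted p reached at most 0.0499 over the 15 settings. Fos, the AP-1 subunit widely used as a marker of recent activity (12:85473890-85477273), stood at 7.01, 8.80 and 6.90 CPM against 14.1 and 17.8 CPM (-1.08 ± 0.15, edgeR adjusted p = 0.022). It lost its call without M337V 1, without M337V 2, without M337V 9 and in the fit of all 10 libraries, where its adjusted p was at most 0.13. WT and NTg libraries stood at 32.8 to 47.7 CPM for Egr1 and 11.8 to 20.5 CPM for Fos, above every library of M337V 1 to 3.

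By role, the medians were lowest among transcription factors and matricellular genes. The 8 AP-1 subunits tested had a median of -0.49 and the 12 Egr, Nr4a and Klf factors one of -0.53. The 11 feedback regulators had a median of -0.16 and the 5 neuronal effectors one of -0.12, and the 2 secreted matricellular genes, Ccn1 and Ccn2, one of -0.56. No difference between these subgroups was tested. Nr4a1, an orphan nuclear receptor, stood at 7.73, 7.83 and 7.68 CPM against 13 and 11.5 CPM (-0.66 ± 0.11, edgeR adjusted p = 0.0608). Klf2, a shear-responsive factor of endothelium, stood at 3.63, 4.02 and 4.81 CPM against 8.11 and 7.69 CPM (-0.93 ± 0.16, edgeR adjusted p = 0.0616). Sik1, a kinase that feeds back on CREB signalling, stood at 8.85, 9.34 and 8.83 CPM against 15 and 12.3 CPM (-0.61 ± 0.12, edgeR adjusted p = 0.0957). The sets did not overlap on these 3 genes, which missed the threshold.

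Other members of the response overlapped between the sets. Arc, a synaptic effector induced with Egr1 and Fos in neurons, stood at 23.8, 20.9 and 23.4 CPM against 22.8 and 22.1 CPM. Jun, the partner of Fos in AP-1, stood at 43.4, 54.3 and 41.9 CPM against 51.6 and 38.4 CPM, and Jund at 105 to 118 CPM against 122 and 95.5 CPM. Npas4, a factor of active neurons, stood at 4.20, 3.17 and 3.92 CPM against 3.98 and 4.21 CPM. Egr2, which also drives Schwann cell myelination, stood at 0.819, 0.751 and 5.80 CPM, so M337V 3 stood apart from its own set. M337V 3 also had the highest summed level of the 16 Schwann cell and nerve root genes, 2012 CPM, against 576 to 1150.0 CPM in the other 4 M337V libraries, and the part of root tissue in the Egr2 level was not tested. Arc, Jun, Jund and Npas4 each overlapped between the sets.

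Promoters of 3 of these genes are shown because cyclic AMP response elements and serum response elements are the known switches of immediate early genes. Each stretch is the 120 bases before the RefSeq start (GRCm38.p6), with TGACG, the half-site of the cyclic AMP response element, in capitals where it occurs on either strand. They belong to Fos (chr12:85473770-85473889), Nr4a1 (chr15:101266726-101266845) and Klf2 (chr8:72318942-72319061), all on the plus strand. The stretch shown for Klf2 held 0 half-sites, but Klf2 held the half-site farther upstream, within the 250 bases searched.
Fos: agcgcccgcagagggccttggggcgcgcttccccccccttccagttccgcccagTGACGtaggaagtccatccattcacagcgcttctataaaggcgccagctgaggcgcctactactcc
Nr4a1: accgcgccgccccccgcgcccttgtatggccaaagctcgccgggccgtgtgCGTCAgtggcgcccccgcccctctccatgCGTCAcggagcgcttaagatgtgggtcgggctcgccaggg
Klf2: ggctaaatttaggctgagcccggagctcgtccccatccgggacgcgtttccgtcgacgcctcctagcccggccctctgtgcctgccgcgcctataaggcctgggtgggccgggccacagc
In the 250 bases before the start, 20 of the 31 list members searched, of 38 tested, held TGACG on either strand (64.5%), as did 3331 of 11556 tested genes (28.8%). The full palindromic element TGACGTCA, which contains the half-site, was in 3 of 31 (9.68%) and 338 of 11556 (2.92%), and the CArG box was in 3 of 31 (9.68%) and 161 of 11556 (1.39%). These matches describe the letters only, and Egr1, Egr3, Klf10, Ier2, Sik1, Arc and Ccn2 were not searched.

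**Figure D4:**
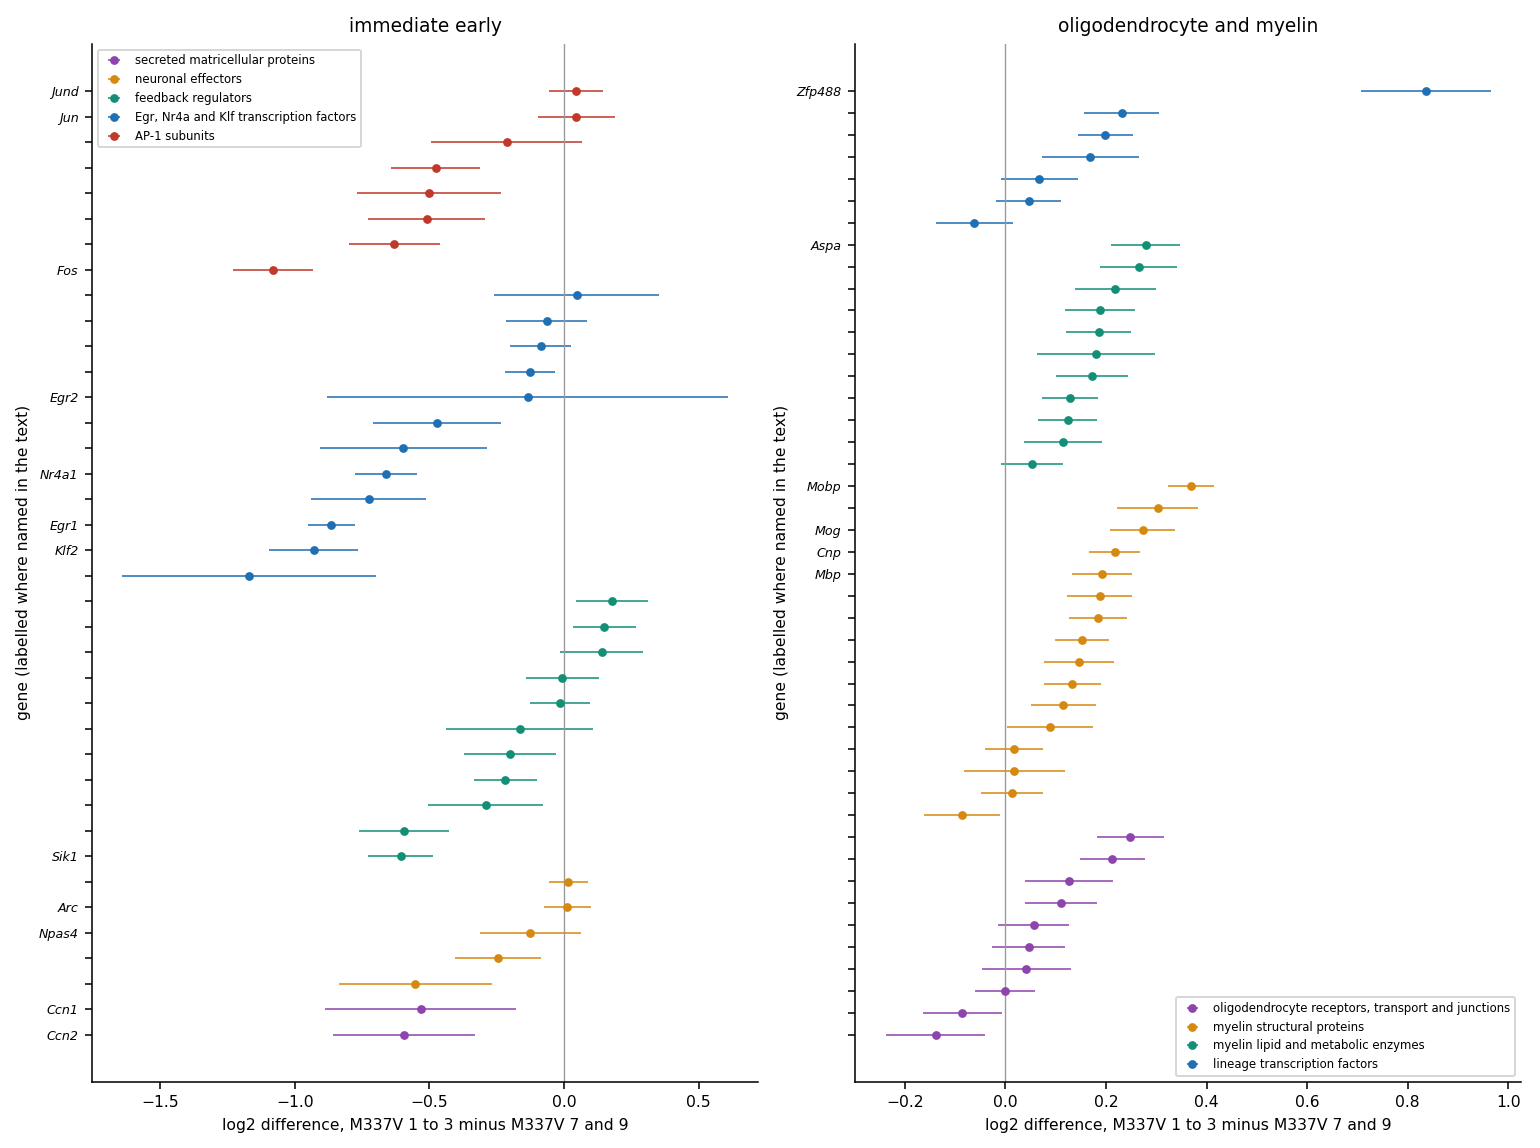
Log2 difference between the M337V sets (horizontal axes, M337V 1 to 3 minus M337V 7 and 9) of the 38 immediate early genes (left) and the 44 oligodendrocyte and myelin genes (right), coloured by role, with bars of 1 standard error from the edgeR fit and labels on the genes named in the text. In the left panel 30 of 38 points are negative, and in the right panel 39 of 44 are positive over a narrower range.

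Oligodendrocyte and myelin genes were slightly higher in M337V 1 to 3. All 44 on the list were tested, with a median log2 difference of 0.14 against 0.00 over all genes, 39 of 44 positive. Mobp and Zfp488 were called, both higher, where 0.209% of all genes were called higher. At an unadjusted p below 0.05, 21 were higher and 0 lower, beside 5.63% and 6.72% of all genes. DESeq2, which called 218 of all 14859 genes in either direction, called 5 higher: these 2, Aspa, Cnp and Mog. Mobp, a structural protein of the compact myelin of the central nervous system (9:120149707-120181484), stood at 4160.4, 4179.6 and 4182 CPM against 3206 and 3245.5 CPM (0.37 ± 0.04, edgeR adjusted p = 0.0121). Zfp488, an oligodendrocyte transcription factor, stood at 9.36, 9.66 and 10.3 CPM against 5.27 and 5.67 CPM (0.84 ± 0.13, edgeR adjusted p = 0.0374). The sets did not overlap on either, but the calls were not stable. Mobp was lost without M337V 2, 7 or 9 and Zfp488 without M337V 1, 2, 7 or 9. Both were lost in the fit of all 10 libraries. Outside M337V, the level of Zfp488 did not track the sum of its list. NTg 4, 5 and 6 had 9.99, 11.6 and 10.4 CPM of Zfp488, as high as M337V 1 to 3 or higher. Their list sums, 30630 to 35910 CPM, were below all M337V libraries (40020 to 48200 CPM). WT 8 had 6.23 CPM of Zfp488 with a list sum of 47950 CPM, and WT 10 had 12.7 CPM with 43900 CPM. Zfp488 also shares sequence with other genes under the looser rule above.

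By role, 9 of 16 structural genes and 7 of 11 lipid and metabolic enzymes were higher at an unadjusted p below 0.05. The corresponding counts were 3 of 7 lineage transcription factors and 2 of 10 receptors, transporters and junction genes. Mbp, which encodes a main protein of compact myelin, was not called. It stood at 15133, 16556 and 14578 CPM against 13814 and 13132 CPM (0.19 ± 0.06, edgeR adjusted p = 0.263). Cnp, a myelin phosphodiesterase, stood at 1182 to 1238 CPM against 1044 and 1026 CPM, and Mog, a protein of the outer myelin surface, at 286 to 322 CPM against 258 and 248 CPM. The 15 precursor genes had a median of -0.03, with 1 higher and 1 lower at an unadjusted p below 0.05, beside 5.63% and 6.72% of all genes, and 0 called in edgeR, DESeq2 or limma-voom. In bulk tissue, more oligodendrocytes and more RNA per oligodendrocyte cannot be told apart.

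Among developmental genes no member was called in edgeR, over 27 Hox genes, 85 cord transcription factors and 56 genes of morphogen signalling. The Hox genes split by paralog group. The 19 tested members of groups 4 to 9 had a median of 0.08 and 1 member higher at an unadjusted p below 0.05, Hoxa5, while all 8 of groups 10 to 13 were negative, with a median of -0.73 and 3 below an unadjusted p of 0.05, beside 6.72% of all genes that were lower. Hoxd11 stood at 8.54, 10.2 and 4.86 CPM against 13.5 and 17.7 CPM (-0.99 ± 0.26, edgeR adjusted p = 0.187), and Hoxd10 at 15.9, 19.5 and 7.68 CPM against 27.5 and 26.8 CPM (-0.92 ± 0.28, edgeR adjusted p = 0.259). Hoxc11 stood at 3.48, 3.86 and 1.93 CPM against 4.96 and 9.46 CPM. DESeq2 called 2 of them lower, Hoxd11 and Hoxc11, and without M337V 3 edgeR called 1, Hoxd10. Over all genes these fits called 218 of 14859 and 195 of 14762, in either direction. Hoxc10 stood at 48.9, 51.1 and 9.93 CPM against 67.5 and 44.9 CPM, so M337V 3 was below all other M337V libraries and the rest overlapped. Along the cord these genes mark lumbar and sacral segments, and the level at which each cord was cut was not tested.

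Of the cord transcription factors, none was called in DESeq2 or limma-voom either, and 5 of 85 were lower and 0 higher at an unadjusted p below 0.05, with a median of -0.06. For the lower ones this is near the 6.72% of all genes. Lhx1, a factor of inhibitory interneurons, stood at 5.37, 5.85 and 5.17 CPM against 7.55 and 7.33 CPM, and Zfhx3, which patterns spinal neurons, at 51.2, 43.2 and 45.9 CPM against 58.8 and 52.9 CPM. Of the morphogen genes, 10 of 56 were lower and 0 higher at that p, beside 6.72% and 5.63% of all genes, with a median of -0.13 and 0 called in DESeq2 or limma-voom. Wnt4, a secreted Wnt ligand, stood at 3.17, 3.70 and 4.02 CPM against 8.53 and 5.46 CPM (-0.95 ± 0.22, edgeR adjusted p = 0.144). Igf2, a growth factor that adult meninges and vessels express, stood at 32.6, 32.2 and 63.2 CPM against 114 and 57.3 CPM. M337V 3 and M337V 9 overlapped on Igf2, which is also a member of the meningeal list. Without M337V 3, the morphogen list held 1 called gene that was higher and 2 that were lower, beside 195 of 14762 genes called in that fit.

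Endothelial markers were lower in M337V 1 to 3 too, while summed meningeal levels overlapped between the sets. All 16 endothelial genes were negative, with a median of -0.34, and their summed level was 484 to 519 CPM in M337V 1 to 3 and 602 and 654 CPM in M337V 7 and 9. The sum was 563.4 CPM in WT 8, 490.4 CPM in WT 10 and 591.4 to 632.5 CPM in NTg. Called were Flt1, a receptor for vascular endothelial growth factor, at 62.3, 63.2 and 57.5 CPM against 85.5 and 88.0 CPM (-0.51 ± 0.06, edgeR adjusted p = 0.0139), and Cdh5, the endothelial cadherin, at 11.7, 11.7 and 13.7 CPM against 19.4 and 20.7 CPM (-0.70 ± 0.11, edgeR adjusted p = 0.0323). Ptprb and Acvrl1, an endothelial phosphatase and a receptor of the transforming growth factor family, are not on the list and were called lower as well. These calls were not stable: of 15 settings, Flt1 lost its call in 5, Cdh5 in 5, Ptprb in 6 and Acvrl1 in 10. Vwf, a clotting factor stored in endothelium, stood at 14.0, 11.9 and 21.2 CPM against 33.1 and 29.3 CPM. Of the 16 listed endothelial genes, 2 were called lower in edgeR, beside 0.215% of all genes, and 6 each in DESeq2 and limma-voom. Those 2 tools called more genes in all, 218 and 113 of 14859 in either direction. The 11 mural genes had a median of -0.31 and the 20 meningeal and matrix genes one of -0.66. At an unadjusted p below 0.05, 5 mural and 9 meningeal genes were lower and 0 higher, beside 6.72% and 5.63% of all genes. The meningeal genes summed to 573.3, 515 and 1127 CPM against 1278 and 749.5 CPM, with M337V 3 above M337V 9. None of the 31 was called in edgeR or limma-voom, while DESeq2 called 1, the matrix gene Fmod.

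The summed erythroid level was highest in M337V 9 and not in its set as a whole. The 10 erythroid genes summed to 722 to 1037 CPM in M337V 1 to 3, 827 CPM in M337V 7 and 3699 CPM in M337V 9, with a median of -1.43. In edgeR 8 were lower at an unadjusted p below 0.05, beside 6.72% of all genes, and 0 called, and DESeq2 and limma-voom each called Slc4a1, the anion exchanger of red cells. Hbb-bs, an adult globin, stood at 541, 341 and 430 CPM against 404 and 2176 CPM. Of the 11 neutrophil and lymphocyte genes, 2 were called lower, beside 0.215% of all genes. Ltf, a granule protein of neutrophils, stood at 7.73, 7.30 and 5.70 CPM against 21.1 and 17.7 CPM (-1.49 ± 0.15, edgeR adjusted p = 0.00421). Lcn2, made by neutrophils and reactive astrocytes, stood at 3.43, 4.35 and 3.29 CPM against 9.46 and 7.17 CPM (-1.18 ± 0.19, edgeR adjusted p = 0.0464). Lcn2 lost its call in 9 of 15 settings. S100a8, another abundant neutrophil gene, overlapped between the sets, at 13 to 23.3 CPM against 15.8 and 32.5 CPM. Of the 17 interferon response genes, 16 were negative, with a median of -0.42, 9 lower at an unadjusted p below 0.05, beside 6.72% of all genes, and 0 called in edgeR, DESeq2 or limma-voom. The part of blood and vessel content in the immediate early, morphogen and interferon differences was not tested.

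**Figure D5:**
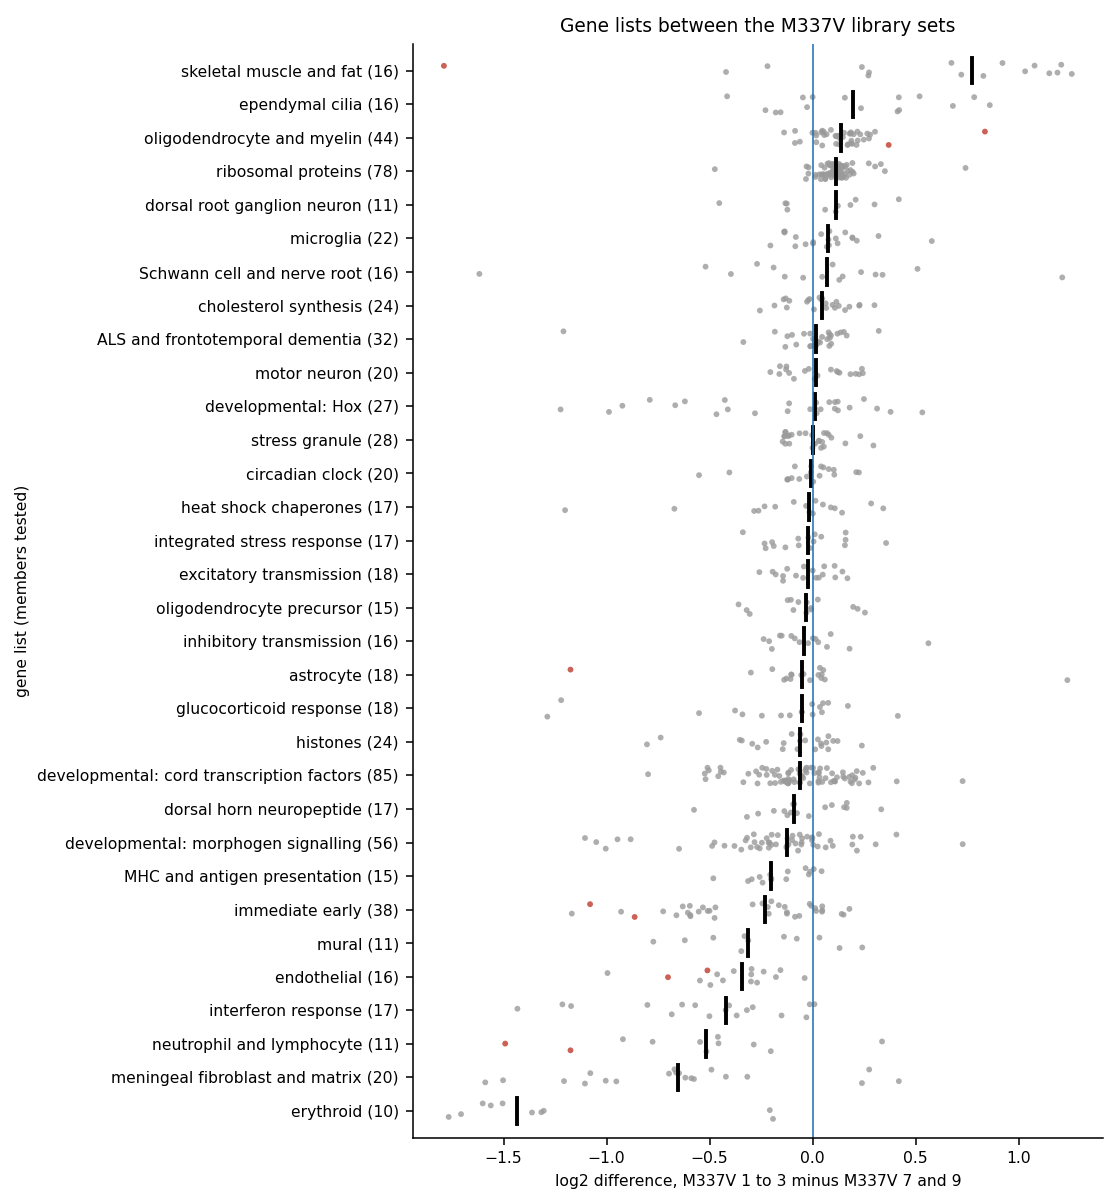
Log2 difference between the M337V sets (horizontal axis, M337V 1 to 3 minus M337V 7 and 9) of the tested members of the 32 gene lists (vertical axis); points are genes, red where called, black bars are list medians and the blue line is the median of all genes tested. Erythroid (-1.43) and meningeal (-0.66) genes lie at the lower end, immediate early genes at -0.23, and myelin genes at 0.14.

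Set against the other genotypes in 1 edgeR model of all 10 libraries, which share their controls, the 2 M337V sets gave different counts. Against WT, M337V 1 to 3 had 5 called genes of 15191 (0.0329%), among them Ndufs5, Hmgn2, Stmn1 and Reln, all lower, and M337V 7 and 9 had 1 (0.00658%), Hnrnpa0, an RNA-binding protein, also lower. Against NTg, M337V 1 to 3 had 1510 (9.94%; 763 higher and 747 lower), and M337V 7 and 9 had 3 (0.0197%). The sets differ in size, 3 libraries against 2, and the difference between these counts was not tested. The count of 1510 became 201 without M337V 2, 230 without NTg 6, 636 without M337V 3 and 871 without NTg 4. It rose to 2088 without WT 8 and 2084 without WT 10. The 3 called genes of M337V 7 and 9 against NTg became 0 without M337V 9, 5 without M337V 1, 8 without NTg 4, 16 without WT 10, 17 without WT 8 and 139 without NTg 4 and WT 8 together. The 5 against WT became 1 without M337V 2, 3 without NTg 5, 9 without M337V 3, 10 without NTg 6, 15 without WT 8, 22 without NTg 4 and 29 without WT 10. The single gene of M337V 7 and 9 against WT became 0 without M337V 2, 7 or 9 or NTg 6, 2 without M337V 1, 3 without NTg 4, 6 without WT 8 and 15 without WT 10.

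The leading genes took different places in these comparisons. Egr1 had a log2 difference to NTg of -0.93 in M337V 1 to 3 (edgeR adjusted p = 0.00414) and of -0.07 in M337V 7 and 9 (adjusted p = 0.84). Fos had one of -1.15 (edgeR adjusted p = 0.0111) and of -0.08 (adjusted p = 0.908). Without NTg 4 the differences were -1.03 and -0.17 for Egr1 and -1.35 and -0.27 for Fos. Over the immediate early list, the median difference to NTg was -0.36 in M337V 1 to 3, with 9 of 38 called lower beside 4.92% of all genes, and -0.09 in M337V 7 and 9, with 0 called. For the myelin list it was 0.31, with 27 of 44 called higher beside 5.02% of all genes, and 0.18, with 0 called. Without NTg 4, 8 immediate early genes were called lower (median -0.31, beside 2.46% of all genes) and 24 myelin genes higher (median 0.32, beside 3.29%) in M337V 1 to 3. In M337V 7 and 9, 0 of either list were called, beside 0.0529% of all genes. To WT, the immediate early medians were -0.15 and 0.13 and the myelin medians -0.04 and -0.16, with 0 called in all 4. Reln differed from WT by -1.10 in M337V 1 to 3 (edgeR adjusted p = 0.037) and by 0.14 in M337V 7 and 9 (adjusted p = 0.89). Its differences to NTg were -0.24 and 1.00, the second called only without NTg 4 (edgeR adjusted p = 0.04). Of the control genotypes, NTg was thus the nearer to M337V 1 to 3 on this gene and WT the nearer to M337V 7 and 9.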

How the data were processed

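The series holds polyA RNA-seq of mouse lumbar spinal cord, 1 library per animal, prepared with a stranded Illumina TruSeq kit and sequenced in pairs, per the labels' protocols. The authors deposited raw read counts per gene in 1 table of 22024 rows for 10 libraries. The submitters' processing notes name Trimmomatic 0.32, STAR 2.4.2a, featureCounts of Subread 1.4.6, Salmon 0.8.2 and DESeq2 1.14.1. For the role of each, the genome build, the annotation and the use of strand, no source used here gives an answer. Row names were matched to GENCODE vM21 (GRCm38), which named 21774 rows.

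Genes were kept by edgeR's filterByExpr (minimum count 10, total 15) over the 5 M337V libraries, leaving 14859, scaled by TMM and tested with edgeR 4.0.16 (quasi-likelihood test, Benjamini-Hochberg threshold 0.05, R 4.3.3). Levels are CPM scaled by TMM over all 10 libraries. No fold was printed for copies near 0. With 3 animals against 2, an exact 2-sided rank-sum test of single values cannot go below p = 0.2, so none was used. Counts of every pair of M337V libraries differed by more than sampling noise (smallest chi-square per degree of freedom 4.87). On simulated counts for the same 14859 genes and this comparison, 77% of 100 genes changed 1.5-fold and 86% of 100 changed 2-fold were recovered. There were 6 false calls among 169. Each simulated gene had the spread typical of its level and was drawn independently of the others. Spread particular to a gene and shifts of many genes in 1 library were left out, so these rates need not hold for the real libraries.

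Alternatives were DESeq2 1.42.0, limma 3.58.1 voom with quality weights, robust dispersions, RLE scaling, 2 other filters, removal of GC and length trends, all 10 libraries in the fit, and each library left out. Near-identical pairs were found by alignment of GENCODE transcripts. The library sets, the 32 gene lists and the tests were chosen with earlier results of these data known. Genes named were up to 12 called genes per direction with the largest difference at a mean of 1 CPM or more, up to 6 members of each leading list with the smallest p and 4 with the highest level, up to 3 called members of the other lists, and both TARDBP genes. Copies and their parents, members of runs, and Arc, Npas4, Egr2, Hoxc10, Vwf, Hbb-bs, S100a8, Rpl30, Sgk1, Per1, Ddit4, Mylpf, Ckm, Serpina3n, Slc4a1, Fmod, Errfi1 and Aspa were named after their values were seen, as were called genes outside the rule. Some genes that the rule would name are not reported here.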

Additional observations from a re-analysis of the deposited data

Results flagged for a closer look

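In all, 162 values were looked at over the 5 M337V libraries. They were depth, human TARDBP, posterior Hox counts, the summed levels of gene lists and their roles, and named or called genes. In 6 of them, 1 library was far from the other 4. Chance alone gives about 1 in 20 for independent values, so 6 of 162 is no more than chance gives. Many values overlap, and the called genes were picked for a split between the sets, so this rate is only a rough guide. Erythroid genes summed to 3699 CPM in M337V 9 and to 722 to 1037 CPM in the others. Glucocorticoid response genes summed to 1331 CPM in M337V 9 and to 1089 to 1132 CPM in the others. Id2, a helix-loop-helix inhibitor of the cord transcription factor list, stood at 89.2 CPM in M337V 9 and at 97.2 to 99.5 CPM in the others. Astrocyte genes summed to 12830 CPM in M337V 3, below the others at 14870 to 15460 CPM. Dorsal horn neuropeptide genes summed to 295.9 CPM in M337V 3, below the others at 345 to 360.2 CPM. M337V 2 was the shallowest library, with 18724888 counts against 19343261 to 19571914.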

How the results depend on the processing

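The count of 63 called genes (31 higher, 32 lower) became 22 (12 and 10) with all 10 libraries in the fit, 30 (15 and 15) with 9, NTg 4 left out, 218 (85 and 133) in DESeq2, 113 in limma-voom (67 lower) and 134 (55 and 79) with robust dispersions. It was 43 with copies summed (18 lower), 51 with no filter and 63 with RLE scaling. The causes were not tested. Leaving out 1 library each gave 20 to 195 (11 to 65 higher, 9 to 130 lower). Of the 63, 19 to 63 stayed called without 1 library, and none of them reversed in any setting. The immediate early median of -0.23 was -0.28 in limma-voom and -0.32 to -0.21 without 1 library. Its 2 called genes became 1 with all 10 libraries, 5 in DESeq2 and with robust dispersions, 4 in limma-voom and 1 to 5 without 1 library. The myelin median was 0.10 to 0.18 without 1 library. Its 2 called genes became 0 with all 10 libraries and with 9, 5 in DESeq2 and 0 to 3 without 1 library. Hox genes had 2 called lower in DESeq2 and 0 to 1 without 1 library, and morphogen genes 0 to 1 higher and 0 to 2 lower. The cord factor median of -0.06 was -0.0211 with GC and length trends removed and -0.0907 to -0.0187 without 1 library. The Hox median, 0.01 in the main fit, changed sign to -0.006 in limma-voom and -0.008 with GC and length trends removed. It was also negative without M337V 1 (-0.027), M337V 2 (-0.029) or M337V 7 (-0.044). The morphogen median of -0.13 was -0.19 to -0.059 without 1 library. Medians of 2 other lists changed sign without M337V 9: inhibitory transmission from -0.0428 to 0.0217 and integrated stress response from -0.0204 to 0.0166; without 1 library they ranged from -0.0881 to 0.0217 and from -0.0703 to 0.0166. Without NTg 4 and WT 8 together, M337V 1 to 3 had 31 called genes against WT, and M337V 7 and 9 had 9 against WT and 139 against NTg. Without 1 library the 4 counts ranged from 1 to 29 and 201 to 2088 for M337V 1 to 3 against WT and NTg, and from 0 to 15 and 0 to 17 for M337V 7 and 9. At a mean of 10 CPM or more, distances were 0.192 to 0.216 between the sets (median 0.204), 0.140 to 0.211 within M337V 1 to 3 and 0.166 within M337V 7 and 9, with M337V 1 and 3 farther apart than 5 of the 6 pairs between the sets. No paired analysis was possible because the 2 sets share no animal number. Depth limits low genes: a fold against copies at 0 to 3 counts was not given.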

Other observations

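Ribosomal protein genes, which encode the protein part of the ribosome, were slightly higher in M337V 1 to 3. Of 78 tested, 73 were positive, with a median log2 difference of 0.12, and 0 called in edgeR. At an unadjusted p below 0.05, 30 were higher and 1 lower, beside 5.63% and 6.72% of all genes, and without overlap between the sets 59 were higher and 0 lower, beside 16.0% and 14.9%. DESeq2 and limma-voom each called 1, Rpl30, which stood at 127, 132 and 131 CPM against 97.3 and 106 CPM. A trend over transcript length stood beside this: the median over all genes was 0.06 in the fifth with the shortest transcripts and -0.04 in the fifth with the longest, and with GC and length trends removed the ribosomal median was 0.05.

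Genes induced by glucocorticoids were lower in part. Of 18 tested, 5 were lower and 0 higher at an unadjusted p below 0.05, beside 6.72% and 5.63% of all genes, with a median of -0.05. In edgeR 0 were called. DESeq2 called 3 lower (Ddit4, Errfi1 and Per1) and limma-voom 2 (Ddit4 and Per1), beside 218 and 113 of all 14859 genes in either direction. The summed level of the 18 genes overlapped between the sets, at 1089 to 1132 CPM in M337V 1 to 3, 1093 CPM in M337V 7 and 1331 CPM in M337V 9. Per1, a clock gene induced by glucocorticoids, stood at 26.9, 22.7 and 26.9 CPM against 35.1 and 39.6 CPM, and Ddit4, a stress-induced inhibitor of mTOR, at 37.5, 37.4 and 36.9 CPM against 46.5 and 47.8 CPM. Sgk1, a glucocorticoid-induced kinase, stood at 39.2, 39.1 and 61.8 CPM against 79.2 and 138 CPM. Serpina3n, a serine protease inhibitor of reactive astrocytes, stood at 202, 189 and 194 CPM against 122 and 43.1 CPM (log2 difference 1.24, edgeR adjusted p = 0.197). The astrocyte list did not follow it: of 18 tested, 7 were positive and 11 negative, with a median of -0.05. At an unadjusted p below 0.05, 1 was higher and 3 lower, beside 5.63% and 6.72% of all genes. The 1 member called in edgeR, Lcn2, was lower. Skeletal muscle genes were present in all 5 libraries and spread within the sets: Ckm, muscle creatine kinase, stood at 13.7, 7.40 and 23.4 CPM against 9.72 and 3.12 CPM, and Mylpf, a fast muscle myosin light chain, at 7.88, 6.22 and 15.9 CPM against 6.10 and 2.65 CPM.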
